A study of Macaca fascicularis with 80 samples.

Results

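The 24 h response of blood to the second dose of IL-15/IL-15Ra was measured in 8 cynomolgus macaques (Macaca fascicularis), 4 female and 4 male, by comparing day 4 with day 3 in the same animals. The comparison used 16 libraries of the 80 in the study, 8 of day 4 and 8 of day 3, taken by the day and paired by the animal number in the labels. Day 4 followed 10 µg/kg given on day 3. Day 3 blood carries the earlier dose of 5 µg/kg, given on day 0, in its label, and was read as drawn before the dose of that day, although the labels do not say so. The day 3 samples are therefore not untreated blood. All 16 libraries come from animals that had received the first dose, and the 8 of day 4 also followed the second. Whole blood was collected into PAXgene tubes, which fix RNA at the time of the draw, and RNA was profiled by bulk sequencing. No undosed animals were analysed, so elapsed time and repeated bleeding cannot be told apart from the dose.

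Interleukin 15 is a cytokine that binds its receptor alpha chain on the presenting cell and signals through a receptor of a beta and a gamma chain on natural killer cells and memory CD8 T cells, where JAK kinases and STAT5 carry the signal. The complex with the alpha chain acts as an agonist that does not need a presenting cell. It is known for driving the activation and expansion of these lymphocytes, and for moving lymphocytes out of the blood for a short time after dosing. Gene products are not named here, because the files list identifiers alone and 0 of the 38550 identifiers matched the gene table used for names. The blood cell markers and the cytokine signalling lists could for the same reason not be measured.

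On day 4 the libraries held 21.54 to 28.13 M counts (M, mega), with a median of 25.715 M, and on day 3 they held 20.5 to 36.22 M, with a median of 24.13 M. The mean difference was 0.0375 M and 6 of 8 animals had the higher total on day 4 (two-sided exact permutation test by sign flips, p = 0.984). The share of counts in the 100 most abundant genes was 23.46% ± 2.41 on day 4 and 21.64% ± 1.36 on day 3 (SD, n = 8), higher on day 4 in 7 of 8 animals (exact p = 0.0156, adjusted over 6 tests 0.0702). The TMM factor, the scaling factor set by a trimmed mean of gene ratios, was 0.9502 ± 0.159 on day 4 and 1.06 ± 0.0991 on day 3, lower on day 4 in 7 of 8 animals (exact p = 0.0234, adjusted 0.0702). Without animal 39102 both kept these directions in 6 of 7 animals (exact p = 0.0312 for the share and 0.0469 for the factor, adjusted 0.141 for both). All 16 libraries share 1 run and library tag. Of the libraries of days 0, 1, 7 and 8 used further below, that of animal 39095 on day 7 alone carries another library tag. The part of this tag was not tested. The day 4 library of animal 39102 stood apart from the others, so the results are given with and without this animal. It had the fewest genes detected of the day 4 libraries (16618, others 17138 to 18394) and the largest share of counts in its 100 most abundant genes (28%, others 20.1% to 25.5%). Its TMM factor was the lowest at 0.657 (others 0.879 to 1.22). The part of these library properties in the results was not tested.

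With all 8 animals, the genes that passed the test on day 4 were all lower than on day 3. Of 16054 genes tested, 29 fell and 0 rose at an adjusted p under 0.05 by edgeR's quasi-likelihood test with animal as a block, which is 0.181% of the genes. The 29 genes fell by 0.76 to 1.83 on the log2 scale, with a median of -1.09, and 19 fell by more than 2-fold. In whole blood, fewer cells of a type and less RNA per cell cannot be told apart, and this holds for every gene below. All 29 were lower in 8 of 8 animals, but they were called on these same changes, so this describes the choice. Over all genes 389 were lower (2.42%) and 194 were higher (1.21%) in 8 of 8 animals, together 3.63% of the genes tested. At an unadjusted p under 0.05 the test held 677 genes higher and 1085 lower, and DESeq2 called 37 genes up and 217 down. The adjusted p of the 29 genes lay between 0.0353 and 0.0481, close to the threshold, and the count was 0 without any 1 of animals 39090, 39095, 39098, 39100 and 39103.

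Without animal 39102, genes passed in both directions. In the other 7 animals 41 genes rose (0.255% of the genes tested) and 142 fell (0.885%), together 1.14%. The 41 genes rose by 0.32 to 0.99 on the log2 scale (median 0.48), none by more than 2-fold. The 142 genes fell by 0.28 to 2.87 (median -0.75), 32 of them by more than 2-fold, and all 29 genes called with 8 animals were among them. The median standard error of a log2 fold change was 0.129 without the animal and 0.185 with it, and the biological coefficient of variation common to all genes was 0.176 and 0.295. The genes that rose had a median level of 6.01 log2 CPM (counts scaled to library size, per mega count) and those that fell 4.60 log2 CPM. Among the 4014 most abundant genes 24 rose and 40 fell. Scaled by library totals alone, which moved the median log2 change of all genes to -0.07, 17 genes rose and 246 fell in the 7 animals, and DESeq2 called 210 up and 279 down. Leaving out a further animal gave 13 up and 76 down without 39098, 17 up and 66 down without 39100, 26 up without 39097, 25 up without 39103, and 111 up without 39104.

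**Figure D1:**
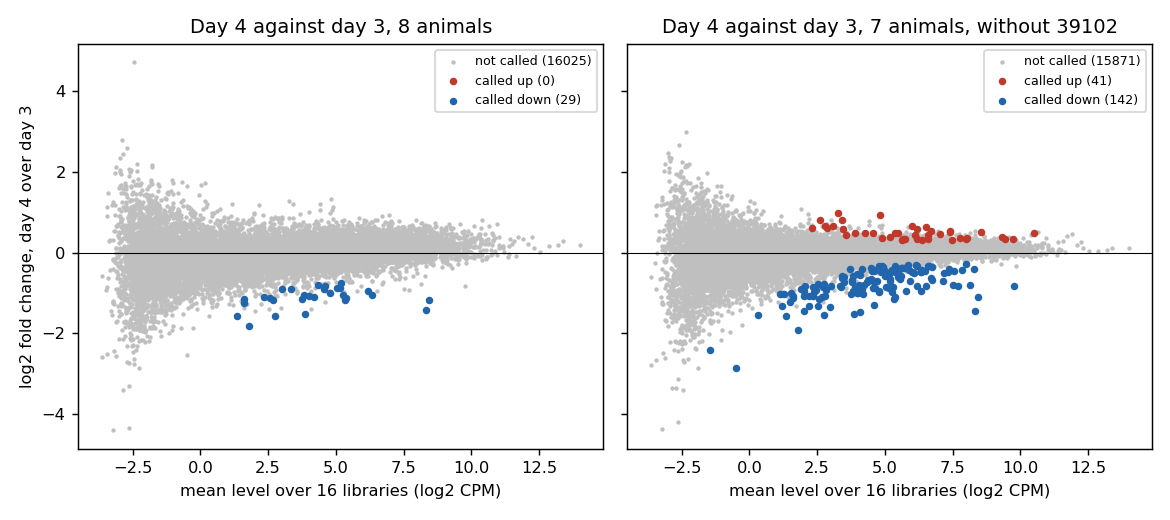
Log2 fold change of day 4 over day 3 (vertical axis) against the mean level over the 16 libraries in log2 CPM (horizontal axis), each point 1 gene, with all 8 animals on the left and without animal 39102 on the right. The 29 blue points on the left all lie below 0; on the right 41 red points lie above and 142 blue points below 0.

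The animal left out was not used to choose the 41 and 142 genes, so its own change could be read separately. In animal 39102, 138 of the 142 falling genes were lower on day 4 than on day 3 (97.2%), and for 81 of them the change lay below that of each of the other 7 animals. Over all genes tested, 56.8% were lower in this animal and 34% lay below each of the other 7. The median change of the 142 genes was -1.46 in this animal. In the 7 animals used to choose the genes the medians ran from -1.08 in 39103 to -0.32 in 39104, which is a description of the choice. Of the 41 rising genes, 27 were higher in animal 39102 (65.9%), and for 22 of them the change lay above that of each of the other 7. Over all genes tested, 43.2% were higher in this animal and 28.2% lay above each of the other 7. The median change of the 41 genes was 0.99 in 39102, against 0.19 to 0.57 in the other 7, with single changes in 39102 between -6.13 and 5.61 on the log2 scale.

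The levels behind these counts are shown for 4 identifiers. The naming rule took only genes with the same direction in 8 of 8 animals from day 3 to day 4. That agreement is therefore a condition of the choice for all 4. ENSMFAG00000000349 had the largest fall under the naming rule. Its levels on day 4 ran from 1.43 CPM in animal 39102 to 12.5 CPM in animal 39104, with a median of 2.66 CPM. On day 3 they ran from 4.38 CPM in animal 39102 to 21.3 CPM in animal 39098, with a median of 12.7 CPM. The 2 days overlap in range, yet each animal was lower on day 4, with log2 changes of -0.40 in 39104 to -3.00 in 39095. In the fit it fell by 1.57 (SE 0.261, adjusted p = 0.0467 by edgeR), with 8 of 8 animals lower. Without animal 39102 it fell by 1.55 (SE 0.242, adjusted p = 0.00448). The levels rest on 24 to 329 counts on day 4 and 124 to 526 counts on day 3.

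ENSMFAG00000040797, the next largest fall, ran from 3.18 CPM in animal 39090 to 23 CPM in animal 39104 on day 4 (median 9.09 CPM). On day 3 it ran from 8.45 CPM in 39090 to 40.9 CPM in 39100 (median 27.5 CPM). Animal 39104 again changed least, by -0.29, and animal 39095 most, by -2.60. In the fit it fell by 1.52 (SE 0.25, adjusted p = 0.0452), with 8 of 8 animals lower. Without animal 39102 it fell by 1.52 (SE 0.233, adjusted p = 0.00434). Both identifiers lost their calls without any 1 of animals 39090, 39095, 39097, 39098, 39100 and 39103.

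No gene was called up with 8 animals, so the rising identifiers were taken in order of the unadjusted p among genes higher in 8 of 8 animals. ENSMFAG00000003324 ran from 167 to 1720 CPM on day 4 (median 473 CPM) and from 107 to 1320 CPM on day 3 (median 301 CPM). Differences between animals were far wider than the step between days, with animal 39097 highest on both days. The log2 difference was 0.53, or 1.45-fold (SE 0.0917, adjusted p = 0.0527, with 8 of 8 animals higher), and 0.51 without animal 39102 (SE 0.0757, adjusted p = 0.0043), where it passed. ENSMFAG00000001455 ran from 72.3 to 265 CPM on day 4 (median 119 CPM) and from 58.3 to 92.8 CPM on day 3 (median 64.8 CPM). Its highest day 4 value was that of animal 39102, which changed by 2.03, while animals 39098 and 39097 changed by 0.17 and 0.18. The difference was 0.81 (SE 0.186, adjusted p = 0.179) with all animals and 0.64 (SE 0.109, adjusted p = 0.00785) without 39102.

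**Figure D2:**
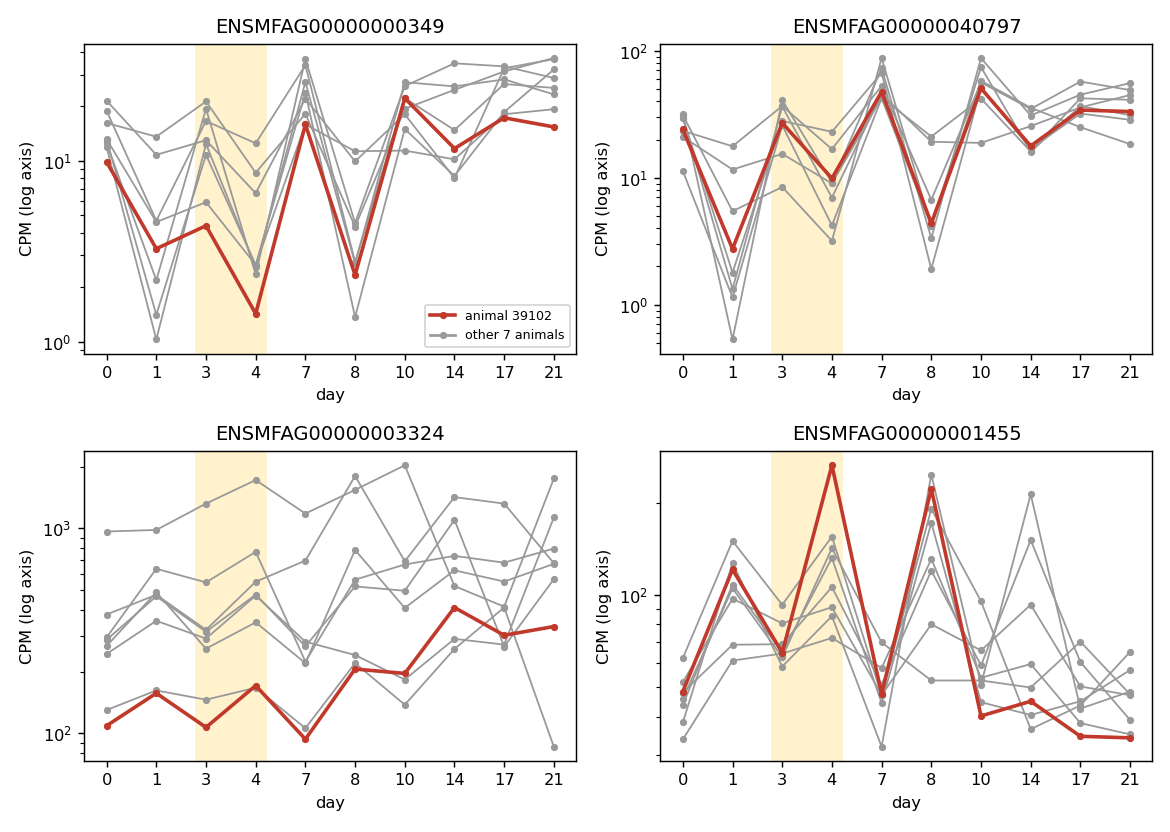
Level in CPM (log axis) of the 4 identifiers in each of the 8 animals over the 10 days (horizontal axis, evenly spaced), with animal 39102 in red, the other 7 animals in grey and days 3 and 4 shaded. The upper pair is lower on day 4 than on day 3 in every animal, which the naming rule required. Animal 39102 has the highest day 4 value of ENSMFAG00000001455, at 265 CPM.

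The same 4 identifiers had values after the other doses in libraries that the comparison of days 3 and 4 did not use. ENSMFAG00000000349 had a log2 change of -1.85 on day 1 against day 0 (SE 0.284, adjusted p = 0.0023) and of -2.56 on day 8 against day 7 (SE 0.393, adjusted p = 0.0127). All 8 animals were lower after both doses. ENSMFAG00000040797 had a log2 change of -2.87 on day 1 (SE 0.464, adjusted p = 0.00296) and of -3.25 on day 8 (SE 0.48, adjusted p = 0.0112), beside -1.52 on day 4, with 8 of 8 animals lower each time. ENSMFAG00000003324 rose by 0.55 on day 1 (SE 0.0993, adjusted p = 0.00563, 8 of 8 animals) and by 0.99 on day 8 (SE 0.208, adjusted p = 0.0238, 7 of 8 animals). ENSMFAG00000001455 rose by 1.14 on day 1 (SE 0.105, adjusted p = 8.23e-05, 8 of 8 animals) and by 1.51 on day 8 (SE 0.318, adjusted p = 0.0238, 7 of 8 animals). Tests of the second response against the first passed for none of the 4 (adjusted p 0.654 to 0.974), nor did those against the third (adjusted p 0.746 for each). Among the 4, ENSMFAG00000040797 had the largest such difference, 1.56 for the second minus the third log2 response (SE 0.616, adjusted p = 0.746).

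The gene groups called in the 7 animals were then followed after the first and the third dose, in libraries not used to choose them. Of the 142 genes lower on day 4 in the 7 animals, 67 (47.2%) had been called down from day 0 to day 1, where 1.86% of all genes were called down. From day 7 to day 8, 123 of them (86.6%) were called down, where 7.77% of all genes were. Without animal 39102 these counts were 55 with a background of 1.28%, and 100 with a background of 1.74%. The shared genes made up 22.5% of the day 1 list and 9.86% of the day 8 list. None of the 142 was called up after either dose.

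Of the 41 genes that rose, 23 (56.1%) had been called up on day 1, where 2.61% of all genes were called up, and 21 (51.2%) were called up on day 8, where 6% were. They made up 5.49% of the day 1 list and 2.18% of the day 8 list, and none of the 41 was called down. Without animal 39102 the counts were 20 on day 1, with a background of 1.86%, and 4 on day 8, with a background of 0.399%. The median log2 change of the 41 genes was 0.82 on day 8 without that animal, and 0.83 with it.

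The size of the 24 h change of each group was given by animal. The mean log2 change of the 142 falling genes was -0.83 ± 0.57 after the first dose, -0.85 ± 0.33 after the second and -1.46 ± 0.67 after the third (SD, n = 8), below 0 in 8 of 8 animals each time. The mean of the 41 rising genes was 0.50 ± 0.27, 0.56 ± 0.21 and 0.93 ± 0.53 after the 3 doses, above 0 in 8 of 8 animals each time. The second dose values come from the comparison that chose the genes. Animal 39104 had the smallest change of all 3 groups on day 4 against day 3, and after the third dose it had the largest change of both falling groups, at -3.23 for the 29 genes and -2.46 for the 142.

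**Figure D3:**
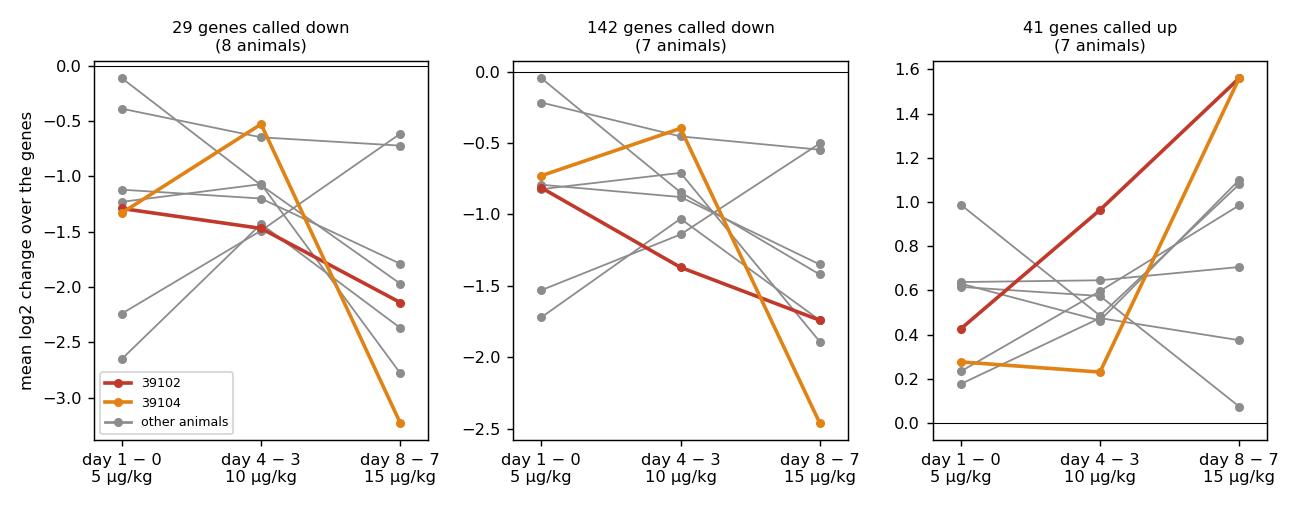
Mean log2 change over the 29, 142 and 41 genes (vertical axis) in the 24 h after each of the 3 doses (horizontal axis), each line 1 animal, with 39102 in red, 39104 in orange and the other 6 animals in grey. All values of the 29 and 142 genes lie below 0 and all values of the 41 genes above 0, and animal 39104 has the smallest second-dose value in each panel.

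Over the whole course, the mean of the 142 genes lay below day 0 after each dose and above it before the next. Their mean log2 difference from day 0 was -0.83 ± 0.57 on day 1 and 0.25 ± 0.47 on day 3 (SD, n = 8). On day 3, 6 of 8 animals were above day 0. The mean difference was -0.61 ± 0.51 on day 4, where 1 animal was above day 0, then 0.69 ± 0.31 on day 7, then -0.77 ± 0.55 on day 8. On day 10 it was 0.58 ± 0.37, above day 0 in 7 of 8 animals, and on day 14 it was 0.0683 ± 0.63, above in 4 of 8. The genes were above day 0 in 8 of 8 animals on days 7, 17 and 21, at 0.54 ± 0.23 on day 17 and 0.57 ± 0.16 on day 21. The 41 genes stood at 0.0981 ± 0.20 on day 3 and 0.65 ± 0.30 on day 4, then at -0.08 ± 0.38 on day 7 and 0.85 ± 0.30 on day 8. They were at 0.54 ± 0.59 on day 14, with a range of -0.22 to 1.42 between animals, and at -0.0043 ± 0.26 on day 17. All these differences share the day 0 libraries, and days 3 and 4 chose the genes. Some libraries of days 10 and 14 carry another run tag than those of day 0, and its part was not tested.

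The second response was set against the other 2 as a difference of differences over all genes. By edgeR's quasi-likelihood test 0 genes differed between the second and the first dose (lowest adjusted p = 0.23), where 1335 had an unadjusted p below 0.05, and DESeq2 called 23. Between the second and the third dose 0 genes differed by edgeR (lowest adjusted p = 0.742), with 1033 at an unadjusted p under 0.05, and DESeq2 called 1. Without animal 39102 edgeR called 0 genes against the first dose and 1 gene (0.00623%) against the third. The median standard error of such a log2 difference was 0.248 against the first dose and 0.293 against the third. Between doses, the amount given, its place in the sequence and the time since the start cannot be told apart.

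Females and males were compared within the same step. The sex-by-day test found 0 genes by edgeR (lowest adjusted p = 1), where 301 had an unadjusted p below 0.05, and 0 genes by DESeq2. Without animal 39102 the count was also 0, with a lowest adjusted p of 0.535 and 870 genes at an unadjusted p below 0.05. The median standard error of the log2 difference between the sexes was 0.371, against 0.185 for day 4 over day 3, so the count of 0 does not show that the sexes responded alike. In females the median change of the 142 genes was -0.62 ± 0.16 (SD, n = 4) over the animals and in males it was -0.97 ± 0.48 (SD, n = 4). That of the 41 genes was 0.51 ± 0.07 in females and 0.51 ± 0.34 in males. The male values include animal 39102, at -1.46 for the 142 genes and 0.994 for the 41 genes. The other males, 39100, 39103 and 39104, had -1.01, -1.08 and -0.32 for the 142 genes. For the 41 genes they had 0.385, 0.483 and 0.193. The ranges of the sexes overlapped in each case. For the 142 genes the females ran from -0.789 to -0.404, and 39104 was the only male above their lowest value. With all 8 animals, 15 of the 142 genes and 2 of the 41 had an unadjusted p below 0.05 in the sex-by-day test by edgeR. Over all 16054 genes tested there were 301.

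How far an animal moved between days was summarised over the 16054 genes by the RMS (root mean square) log2 change. From day 3 to day 4 it was 1.55 in animal 39102 and 0.613 to 0.835 in the other 7 animals. Over the genes above a mean of 4 log2 CPM alone, it was 1.27 in animal 39102 and at most 0.349 in the other 7. Over all 16054 genes the mean was 0.712 ± 0.0587 after the first dose, 0.83 ± 0.299 after the second and 0.92 ± 0.325 after the third (SD, n = 8). By exact permutation of signs the second dose set against the first had an adjusted p of 0.621 (larger in 3 of 8 animals), and against the third 0.834 (larger in 4 of 8 animals). Without animal 39102 the means were 0.718 ± 0.0608, 0.727 ± 0.0755 and 0.865 ± 0.309 (SD, n = 7). The same exact tests then had an adjusted p of 0.938 against the first dose and 0.704 against the third. The adjustment covers 6 exact tests. After the third dose animal 39104 had an RMS of 1.54 and animal 39102 of 1.30, and the other 6 animals had 0.616 to 0.829.

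**Figure D4:**
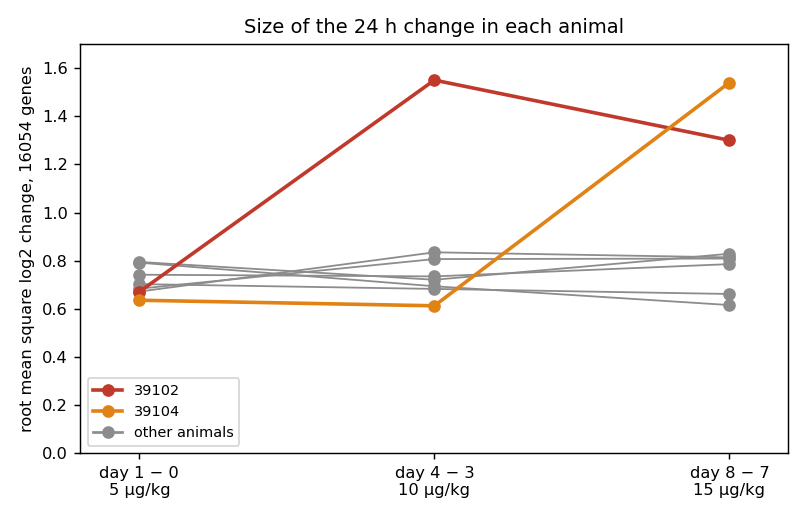
Root mean square log2 change over 16054 genes (vertical axis, from 0) in the 24 h after each dose (horizontal axis), each line 1 animal, with 39102 in red, 39104 in orange and the other 6 animals in grey. The second-dose value of 39102 is 1.55 and the third-dose value of 39104 is 1.54, while the other 7 animals lie between 0.613 and 0.835 after the second dose.

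In animal 39102, the log2 change of 1587 genes lay over 1 unit above that of every other animal and that of 1534 genes over 1 unit below, together 19.4% of the genes. These genes were chosen by their change in this animal. The same count was 166 to 483 genes in each of the other 7 animals. The 1587 genes were the more abundant group, with a median level of 5.06 log2 CPM, and the 1534 genes had a median level of 1.84 log2 CPM. Between animals, the log2 changes on day 4 against day 3 correlated at a median of 0.06 over all 16054 genes and 28 pairs of animals. Over the 7109 genes above a mean of 4 log2 CPM the median was 0.18, and the highest value was the 0.69 between 39102 and 39095. These are correlations across genes, which are not independent, and all pairs share TMM scaling and the abundance of the genes.

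The change of animal 39102 after the second dose was like that of 2 animals after the third, in libraries it does not share. Over the 7109 genes its change from day 3 to day 4 correlated at 0.92 with its own change from day 7 to day 8 and at 0.92 with that of animal 39104, against 0.23 to 0.60 with the other 6 animals. Over all 16054 genes these values were 0.74, 0.74 and 0.08 to 0.33. With its own change after the first dose the correlation was 0.13 over the 7109 genes. Other animals also had second-dose changes like their own third-dose changes over these genes, at 0.75 in 39098, 0.69 in 39095 and 0.61 in 39100. The value was 0.4 in 39097, 0.26 in 39090, 0.05 in 39103 and -0.08 in 39104. With the third-dose change of 39104, the second-dose changes of these animals correlated at -0.08 in 39104 itself to 0.7 in 39095. On day 8 against day 7 the mean log2 change of the 1587 genes was 2.11 in animal 39102 and 2.63 in animal 39104, against 0.14 to 0.54 in the other 6 animals. The 1534 genes changed by -1.25 and -1.30 in these animals, against -0.28 to 0.02 in the other 6. On day 7, before the third dose, the 1587 genes stood at -0.15 and the 1534 genes at -0.03 relative to day 0 in animal 39102. On day 14, a week after the last dose, the 1587 genes stood at 0.51 in 39102 and 1.78 in 39104, against -0.91 to 0.78 in the other 6 animals. The 1534 genes then stood at -0.29 in 39102 and -0.86 in 39104, against -0.79 to 0.40 in the other 6. On day 14 the libraries of 39102, 39103 and 39104 carry a different run tag from those of the other animals. Run and animal can therefore not be fully told apart on that day, and the part of the run was not tested.

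The library values of those samples moved with this likeness in part. TMM factors were 0.722 and 0.635 in the day 8 libraries of 39102 and 39104 and 0.77 to 1.03 in the other 6, next to 0.657 in the day 4 library of 39102. The 100 most abundant genes held 26.9% and 28.7% of the counts, against 22.7% to 27.3%. Their totals were 58.57 M and 51.85 M counts, against 23.25 M to 49.47 M in the other 6, with the highest of these in 39103. The day 4 library of 39102 had 25.58 M, within the range of its day. The part of these values in the likeness was not tested. In the second deposited table, counted under other identifiers, the RMS of 39102 was 1.55 and that of the other animals 0.591 to 0.808, and the correlation with its own third-dose change was 0.76.

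**Figure D5:**
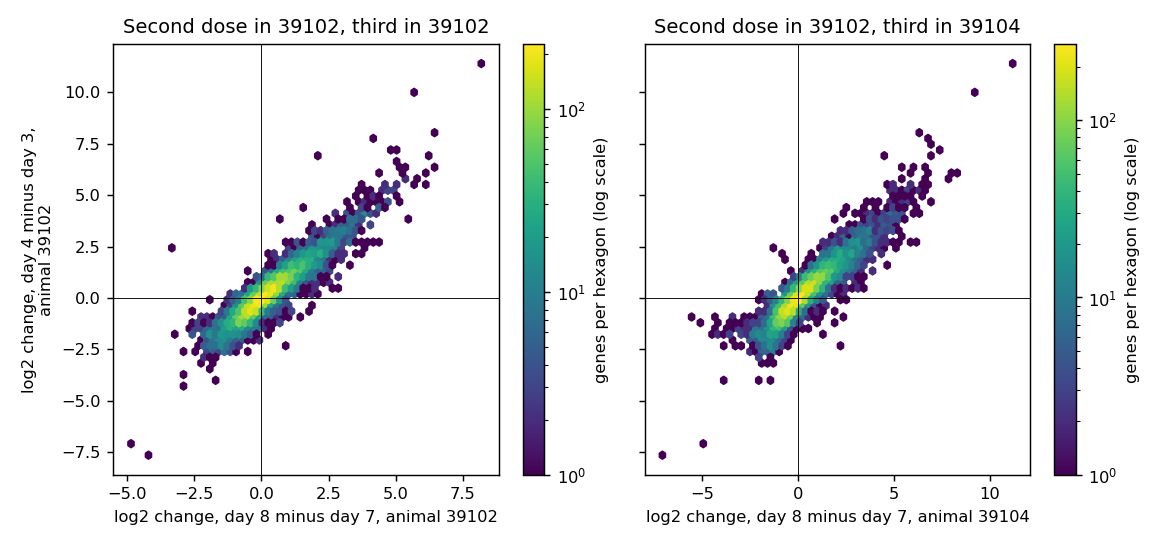
Log2 change of animal 39102 from day 3 to day 4 (vertical axis) against the log2 change from day 7 to day 8 (horizontal axis) of animal 39102 on the left and 39104 on the right, for the 7109 genes above 4 log2 CPM, coloured by the number of genes per hexagon on a log scale. The points lie along a rising diagonal in both panels, with a correlation across genes of 0.92 in each.

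The spread between animals was wider on day 4 than on day 3. The median SD of a gene between animals was 0.527 log2 CPM on day 4 and 0.41 log2 CPM on day 3, and 68.8% of the genes had the larger SD on day 4. Without animal 39102 the medians were 0.432 and 0.405, and the share was 54.2%. The second deposited table gave 32 genes down and 0 up of 15218 tested with all 8 animals, and 157 down and 46 up without animal 39102. Fold changes of the genes called with 8 animals there ran from -1.59 to -0.73 on the log2 scale.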

How the data were processed

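The authors deposited raw counts, whole reads per gene without normalization, as 2 tables covering the same 80 libraries. Per the labels' protocols, RNA came from the RNAdvance Blood kit and libraries from KAPA HyperPrep reagents. For the aligner, counter, build and strand setting, nothing was given in the sources used here, so reads of near-identical, overlapping or antisense genes may be shared between identifiers.

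Genes were kept with filterByExpr by day over all 80 libraries (16054 of 38550), scaled by TMM, and fitted with edgeR 4.0.16 (glmQLFit, glmQLFTest) in R 4.3.3 on the days compared, with animal as a block and Benjamini-Hochberg adjustment over all genes. Standard errors given for edgeR were derived from its test, as the absolute log2 fold change divided by the square root of the F statistic. DESeq2 1.42.0 and limma 3.58.1 (voom) were alternatives. A prior count of 2 was used for log2 CPM. Single library values had an exact sign-flip test, whose smallest p is 0.00781 for 8 animals.

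Libraries were paired by the animal number in the labels. Deviations from each day mean correlated between days 4 and 3 at a median of 0.48 for the same animal (-0.029 in 39102) and -0.07 for different animals. No libraries of a day agreed within counting noise (smallest chi-square per degree of freedom 40.5 over 56 pairs).

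The comparison, lists and rules were chosen with earlier results of these data known. The naming rule took the largest changes among genes called at 0.05, with mean level 2 log2 CPM or more and the same direction in 8 of 8 animals, filled up by unadjusted p, and named 2 identifiers per direction since no symbols were paired. Gene lists by symbol were not run. The tests were run on simulated data with known changes, but without differences between animals or an outlying library. Those runs therefore do not show how the tests behave with animal 39102 included.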

Additional observations from a re-analysis of the deposited data

Results flagged for a closer look

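Each of 25 groups of 8 values was checked for a highest or lowest value far from the nearest of the others by Dixon's ratio of gap to range. The check picked 4 groups; chance picks about 1 in 20. Of these, 3 are values of animal 39102 from day 3 to day 4. This animal was set apart beforehand because its day 4 library lies far from the others, so these 3 describe that library and their number is not set against chance. The day 3 library of animal 39097 held 36.2 M counts, against 26.6 M in the next deepest. The RMS change of animal 39102 from day 3 to day 4 was 1.55, against 0.835 in the next animal. The median log2 change of all genes in this animal was -0.167, against -0.012 in the next lowest. The median change of the 41 rising genes was 0.994 in 39102, an animal not used to choose them, against 0.57 in the next.

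Without animal 39102, 1 gene outside the 4 identifiers had a response that differed between the second and the third dose, with a log2 difference of 3.27 (SE 0.514, adjusted p = 0.0326 by edgeR). It changed by 1.30 from day 3 to day 4, higher in 7 of 7 animals, and by -1.92 from day 7 to day 8, lower in 7 of 7. It changed by -1.79 from day 0 to day 1. It is a low gene, with 7 to 33 counts on day 4 and 3 to 10 on day 3 in these libraries, and 2 to 8 counts on day 8 and 8 to 27 on day 7. With all 8 animals the difference was 2.79 (adjusted p = 0.742), and animal 39102 itself changed by -1.26 from day 3 to day 4.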

How the results depend on the processing

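The 29 genes called down with 8 animals became 0 with library totals, which moved the median log2 change of all genes to -0.177, 45 with upper-quartile factors, 70 (and 1 up) without the low-count filter, 217 (37 up) with DESeq2, 198 (47 up) with limma voom and sample weights, 9 in 1 fit over all 80 libraries and 0 with no replicate block. Robust estimation, DESeq2-type factors, factors from the 16 libraries alone and the second table gave 32 to 37 down and 0 up. Leaving out 1 animal gave 0 to 142 down and 0 to 41 up. For the 7 animals without 39102, alternatives were chosen after seeing the data. Their 41 up and 142 down became 17 and 246 with library totals, 210 and 279 with DESeq2, 458 and 364 without the low-count filter, 0 and 0 with no replicate block, and 13 to 111 up and 66 to 146 down without 1 further animal. The count of 0 for the second minus the first dose was 23 with DESeq2; for the second minus the third it was 1 with DESeq2 and 0 to 1 without 1 animal. The sex-by-day count was 0 in every alternative run, also with no replicate block. The 4 identifiers kept their direction in all 18 alternatives to the fit with 8 animals, which include leaving out 1 animal at a time. The same direction in 8 of 8 animals was a condition of their choice, so this describes the choice. The falling ones each missed the threshold in 9 of 18, and ENSMFAG00000003324 passed in 5 and ENSMFAG00000001455 in 3. The causes were not tested. Gene lists by symbol were not run. Tests of low genes are limited by depth and spread: among the 4014 least abundant genes the median standard error was 0.63 and 0 genes were called with 8 animals.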
